A study of Mus musculus with 3 samples.

Results

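The 2 stable C2C12 lines with opposite changes of Linc-RAM were set together against the empty vector line, to describe what both share relative to the control. The control is 1 library, and so is each of the 2 lines. A gene entered when its mean RPKM over the 3 libraries was at least 5, and 5897 of the 22068 genes in the files did. RPKM is the number of reads per kilobase of gene, scaled to the read total of the library. For each of these 5897 genes, called members here, the mean RPKM of both lines was divided by the RPKM of the control. A ratio of 1 means no difference, and log2 ratios below 0 mean a lower level in the lines.

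C2C12 is a mouse myoblast line that fuses into myotubes after serum is lowered. All 3 lines had been infected with a lentivirus, selected with blasticidin and kept for 12 h in medium with 2% horse serum before polyadenylated RNA was taken. The virus carried an empty vector in the control line, Linc-RAM under a CMV promoter in the overexpressed line, and sh-Linc-RAM, a short hairpin RNA under a U6 promoter, in the knocked-down line. Linc-RAM is a long non-coding RNA of muscle cells. The labels do not say whether a line was a clone or a pool, nor which hairpin was sequenced. With 1 library per line no p-value or standard error can be given. Both lines were divided by the same control, so a level that is peculiar to the control library and a change shared by both lines cannot be told apart.

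The read totals implied by the RPKM values were 5130480 for the control, 2105512 for the overexpressed line and 1878146 for the knocked-down line. Both lines thus held fewer reads than the control, 41.0% and 36.6% of its total, and the median member had 161, 67 and 58 reads in that order. Intervals below are exact 95% Clopper-Pearson intervals of the ratio with the reads of both lines pooled. They cover counting error only, because reads without molecular identifiers are not independent molecules and no replicate exists. For a gene called or ranked by its ratio, the interval comes from the values that selected it. Linc-RAM itself, listed as 2310015B20Rik, was at 0, 1.07 and 0 RPKM in the control, overexpressed and knocked-down libraries, so it does not check the labels. The muscle genes Myod1 (16.7, 34.1 and 9.76 RPKM) and Des (291, 386 and 145 RPKM) were present in all 3 libraries. None of 19 markers of adipocytes, endothelial cells and macrophages reached a mean of 5 RPKM, and their summed level was 12.5, 11.7 and 11.7 RPKM. Of these markers, Adipoq, Cd36, Kdr, Vwf, Itgam and Ptprc were listed at 0 in every library. Other cell type lists were present: 9 of 19 fibroblast and tenocyte markers were members, and all listed summed to 3319, 3534 and 2605 RPKM. Of 22 neurofilament and neurite genes 7 were members, and the sums were 216, 292 and 156 RPKM.

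Most members differed little. The ratio lay within 1.5-fold of 1 for 5453 members (92.5%), and the log2 ratio had a median of -0.00 and 5th and 95th percentiles of -0.49 and 0.56. The mean of both lines exceeded the control at least 2-fold for 74 members (1.25% of those compared) and lay at least 2-fold below it for 36 (0.61%). A level at least 1.5-fold above the control in each of the 2 lines was found for 93 members (1.58%), and at least 1.5-fold below it for 88 (1.49%). Taken singly, the overexpressed line was 2-fold above the control for 101 members (1.71%) and 2-fold below it for 72 (1.22%), and the knocked-down line for 76 (1.29%) and 108 (1.83%). At 1.5-fold the shares were 6.58% above and 5.14% below for the overexpressed line, and 5.85% and 8.87% for the knocked-down line.

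The call rules shape the make-up of both groups. An arithmetic mean of both lines at no more than 0.5 of the control leaves neither line above it, so that all 36 lower genes had both lines below the control follows from the rule, and 35 of them were at least 1.5-fold lower in each line. A higher call has no such limit and can come from 1 line. Of the 74 higher genes, 34 were at least 1.5-fold higher in each line. In 24 others the overexpressed line alone passed 1.5-fold, in 16 the knocked-down line alone did, and in 15 of the 74 the other line was not above the control. Myog, the myogenic factor that marks the onset of differentiation, was such a gene, with 3.95 RPKM in the control, 22.1 in the overexpressed line and 3.60 in the knocked-down line. The control was under 5 RPKM in 47 of the 74 higher genes, which therefore passed the filter only through the lines, and 13 had fewer than 20 control reads. A lower gene must have a control above the filter by construction, so the control levels of the 2 groups are no comparison between them. The pooled interval lay beyond 1 for 67 higher genes and for 34 lower genes. The reads behind these intervals are those that made the call, so the 2 counts are no separate support for it. With the geometric mean of both lines in place of the arithmetic one the counts were 51 higher and 43 lower, so the share of higher genes among those called went from 67.3% to 54.3%.

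**Figure D1:**
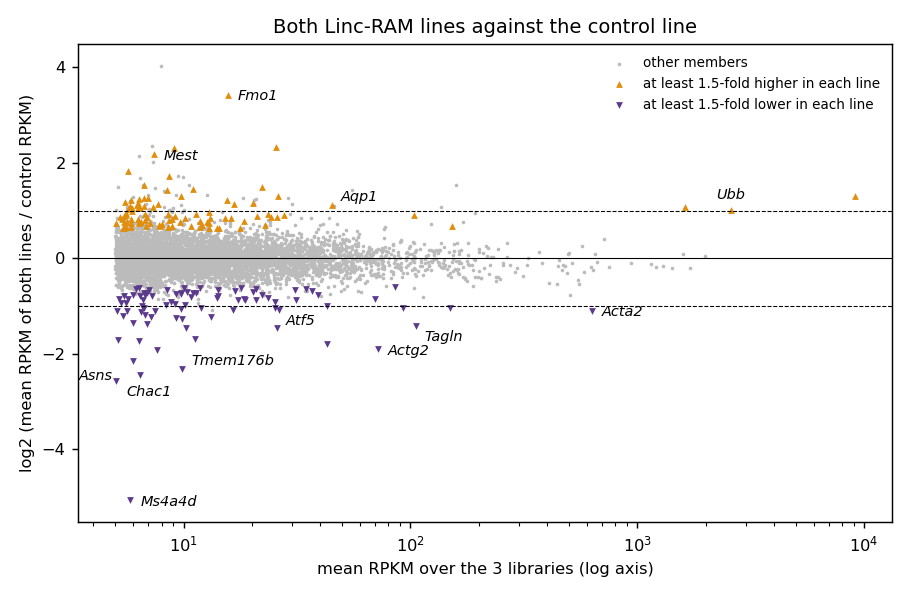
Each point is 1 of the 5897 members, with its mean RPKM over the 3 libraries on a log axis and the log2 ratio of the mean of both lines to the control, and dashed lines mark 2-fold. Triangles are the 93 members at least 1.5-fold higher and the 88 at least 1.5-fold lower in each line, with Asns and Chac1 among the lowest and Ubb towards the right end of the plot.

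Genes were ranked by shared change, the smaller of the 2 log2 ratios where both lines lay on the same side of the control. Among the 12 lowest were 3 genes of the ATF4 pathway (Asns, Chac1 and Atf5), 3 of the smooth muscle actin cytoskeleton (Actg2, Cnn1 and Tagln) and a histone gene, Hist1h2bc, whose reads can be shared with near-identical copies. The others were Tmem176b, which encodes a membrane protein, the orphan receptor gene Gpr176, the interleukin 1 receptor antagonist gene Il1rn, Uap1l1 and the ciliary transport gene Ift20. Tmem176b was at 21.0 RPKM in the control, 3.25 in the overexpressed line and 5.20 in the knocked-down line, a ratio of 0.201 (0.134 to 0.285). For Gpr176 the values were 15.0, 4.01 and 3.95 RPKM, with a ratio of 0.265 (0.198 to 0.350). In both of these genes the 2 lines were closer to each other than either was to the control. Il1rn had 12.4, 4.94 and 0.594 RPKM, and the knocked-down line stood far below the other. Ift20 rested on 18 control reads and 3 reads in each line, and its interval (0.139 to 1.129) included 1.

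Ms4a4d stood outside this ranking because it was listed at 0 in the knocked-down line. It was picked after its values were seen. Its level was 16.4 RPKM in the control, from 41 reads, and 0.973 RPKM in the overexpressed line, from 1 read.

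Among the 12 highest by shared change were Mest, Fmo1, Msln, Gpx3, Cd200, Enho, Npnt, Saa3, Epha1, C1qtnf3 and Aqp1. The control was under 5 RPKM in Mest, Fmo1, Msln, Cd200, Enho and Epha1, which passed the filter only through the lines. The ratios and intervals below come from the values used for the ranking. Mest, an imprinted gene expressed from the paternal copy, was at 2.22 RPKM in the control, 8.78 in the overexpressed line and 11.3 in the knocked-down line, a ratio of 4.52 (2.94 to 7.03). Fmo1, a flavin monooxygenase gene, had 2.09, 6.74 and 38.5 RPKM, so both lines were above the control but far apart. Gpx3, the secreted glutathione peroxidase, was at 9.98, 29.3 and 27.3 RPKM (ratio 2.83, 2.16 to 3.76), and here the lines were near each other. The water channel gene Aqp1 had 25.2, 54.6 and 55.4 RPKM with a ratio of 2.18 (1.91 to 2.49). Cd200, a membrane glycoprotein gene, reached 18.0 RPKM in the overexpressed and 6.81 in the knocked-down line from 2.49 in the control. The mesothelin gene Msln, the nephronectin gene Npnt, the acute phase gene Saa3, the ephrin receptor gene Epha1, C1qtnf3 and Enho had ratios between 2.21 (Saa3) and 3.30 (Msln). In Enho only 19 control reads stood behind the ratio of 2.88 (1.66 to 5.30).

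**Figure D2:**
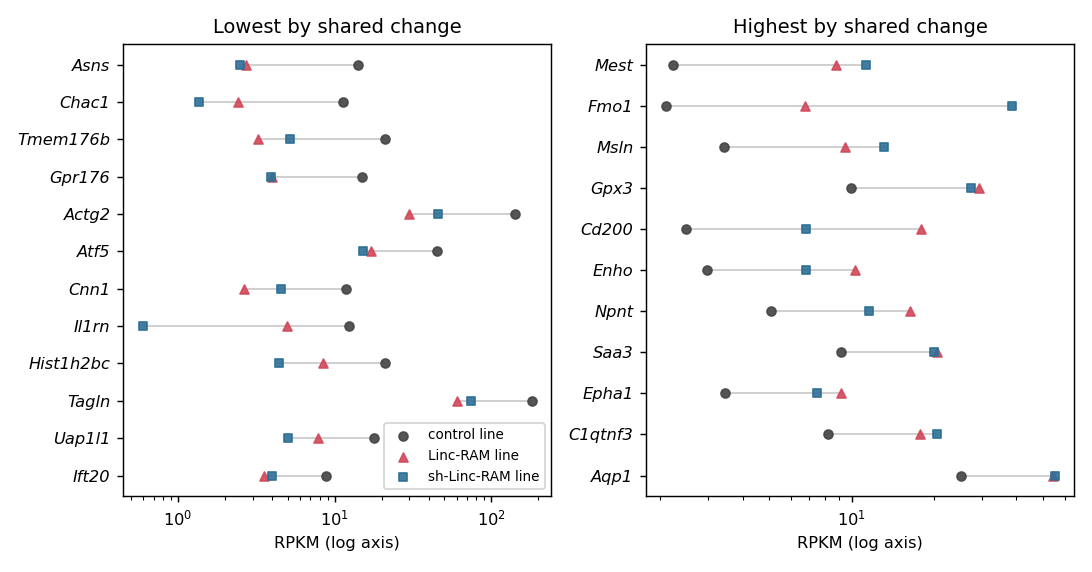
RPKM on a log axis in the control (circle), overexpressed or Linc-RAM (triangle) and knocked-down or sh-Linc-RAM (square) libraries for the 12 genes lowest by shared change and 11 of the 12 highest, 1 library per line. The control is the rightmost point for every gene on the left and the leftmost for every gene on the right, as the ranking requires.

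ATF4 is a transcription factor that is translated when the initiation factor eIF2 is phosphorylated, the step common to the integrated stress response. It binds with C/EBP proteins and drives genes for amino acid synthesis, amino acid uptake and tRNA charging, together with stress factors such as Chac1, Atf5, Ddit3 and Trib3. Of 47 genes listed for this pathway, 25 were members. Their ratio was below 1 for 19 and above 1 for 6. The mean of both lines was at least 1.5-fold lower for 8 of the 25, against 3.04% of all members, and at least 1.5-fold higher for 1, against 4.49%. This list, like the others here, was chosen with earlier results of these data known, so such shares are no separate support. The median log2 ratio of the mean was -0.38, with -0.36 for the overexpressed and -0.41 for the knocked-down line, against -0.00 over all members. Each line was at least 1.5-fold lower for 7 of the 25.

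The promoters of some of these genes hold the letters of the C/EBP-ATF response element. The motif searched was TGATGNAA on both strands (TTNCATCA when read on the other strand), in the RefSeq promoters of GRCm38.p6 from 250 bases before to 50 bases after the start. The RPKM values were made on another build, mm9. Among the 27025 genes with a promoter there, 4.51% held a match, as did 105 of the 4300 members with one (2.44%). Among the 25 ATF4 pathway members 22 had a promoter and 5 of these a match. For the 7 that were lower in each line, 5 had a promoter and 3 held a match, in Asns, Chac1 and Nupr1. They are printed here with Pck2, because they place the motif letters beside genes with lower levels in both lines. The other matches among the 5 were in members that were not 1.5-fold lower in each line, and they are not printed. Got1, an ATF4 pathway member whose interval included 1, was among them. Among the 2-fold lower genes 3 of the 21 with a promoter held a match (14.3%), and among the 2-fold higher genes 3 of 48 did (6.25%). The 3 lower genes were Asns, Chac1 and Pck2, all printed here, so their share is no separate result. Each printed sequence runs 5′ to 3′ in the direction of the gene and ends before its start, with the match in capitals.
Asns, chr6:7693210-7693262, minus strand: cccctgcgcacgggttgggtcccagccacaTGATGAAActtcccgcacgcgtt
Chac1, chr2:119351019-119351086, plus strand: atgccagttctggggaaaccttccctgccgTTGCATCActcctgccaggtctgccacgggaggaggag
Nupr1, chr7:126625543-126625610, minus strand: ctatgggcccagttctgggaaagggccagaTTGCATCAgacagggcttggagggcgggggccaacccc
Pck2, chr14:55540133-55540200, plus strand: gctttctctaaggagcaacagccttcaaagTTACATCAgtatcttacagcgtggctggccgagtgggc
The match lay 23 to 16 bases before the start in Asns, 193 to 186 in Chac1, 110 to 103 in Nupr1 and 103 to 96 in Pck2. A match describes these letters and is no measurement of binding. Atf5, which was also lower in both lines, held no match in this window, and Slc7a5 was not matched to the table.

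Among the sensors and transcription factors of the pathway, 13 were members and the median log2 ratio was -0.15. Atf4 itself was at 109 RPKM in the control, 85.4 in the overexpressed line and 81.8 in the knocked-down line, a ratio of 0.767 (0.692 to 0.853). Atf5, a related bZIP factor, had 44.9, 17.2 and 15.2 RPKM and a ratio of 0.361 (0.295 to 0.441). Both lines were thus lower for each factor, and by more for Atf5. Chac1, whose product degrades glutathione, was at 11.3, 2.42 and 1.36 RPKM, from 91, 8 and 4 reads, with a ratio of 0.167 (0.0846 to 0.311). The stress-induced chromatin protein gene Nupr1 had 54.2, 35.7 and 28.1 RPKM (ratio 0.588, 0.449 to 0.776). Cebpb, a partner of ATF4, was at 25.01, 19.6 and 16.6 RPKM and the mTOR inhibitor gene Ddit4 at 40.3, 32.7 and 30.7 RPKM. Neither of these passed 1.5-fold in the mean. Ppp1r15a, which encodes the subunit that directs dephosphorylation of eIF2, lay on the other side, at 6.60 RPKM in the control, 12.02 in the overexpressed and 10.3 in the knocked-down line (ratio 1.69, 1.25 to 2.30). Ddit3, or CHOP, was at 9.85, 13.6 and 10.4 RPKM, and its interval (0.786 to 1.920) included 1. For Eif2ak1, Eif2ak2, Eif2s1, Cebpg and Ppp1r15b the intervals also included 1, and the ratios ran from 0.901 (Ppp1r15b) to 1.06 (Eif2ak1).

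All 8 measured genes of amino acid synthesis had a ratio below 1, with a median log2 ratio of -0.51. Asns, asparagine synthetase, which lies at chr6:7625169-7643254 on mm9, was at 14.1 RPKM in the control, 2.71 in the overexpressed line and 2.49 in the knocked-down line. These came from 139, 11 and 9 reads and gave a ratio of 0.185 (0.110 to 0.297). It was the lowest gene of all by shared change among members above 0 in the 3 libraries. Aldh18a1, of proline synthesis, had 9.12, 6.46 and 5.89 RPKM and did not reach 1.5-fold in the mean (ratio 0.677, 0.518 to 0.886). The serine synthesis gene Psat1 was at 39.2, 33.0 and 24.3 RPKM. Phgdh, the first enzyme of serine synthesis, was lower in the knocked-down line only, with 10.9, 11.2 and 5.41 RPKM. Shmt2, a mitochondrial enzyme of serine and glycine metabolism, had 11.5, 8.75 and 4.90 RPKM (ratio 0.592, 0.438 to 0.816). Got1 and Gpt2, both aminotransferase genes, had ratios of 0.816 and 0.911 with intervals that included 1.

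Of 4 measured amino acid transporters, Slc7a5 and Slc3a2 were lower in both lines. They encode the light and heavy chain of the same exchanger of large neutral amino acids. Slc7a5 was at 7.93, 4.46 and 2.88 RPKM (ratio 0.463, 0.334 to 0.647) and Slc3a2 at 19.7, 13.01 and 9.90 RPKM (ratio 0.581, 0.475 to 0.720). For the neutral amino acid transporters Slc1a4 (12.8, 9.19 and 13.7 RPKM) and Slc38a2 (65.3, 63.1 and 83.5 RPKM) the knocked-down line was above the control.

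Aminoacyl-tRNA synthetases, which charge tRNAs and include known ATF4 targets, had 17 members of 37 listed, 12 of them below the control. The median log2 ratio was -0.33, but it was -0.02 in the overexpressed and -0.39 in the knocked-down line. Gars, for glycine, was at 22.6, 14.5 and 13.6 RPKM and was the member of this list that passed 1.5-fold in each line. In Sars (16.4, 11.5 and 6.76 RPKM) and Aars (11.6, 8.25 and 4.57 RPKM), for serine and alanine, the mean passed 1.5-fold and the overexpressed line on its own did not. Pck2, the mitochondrial phosphoenolpyruvate carboxykinase, was on no list and belonged to the 36 lower genes, with 15.0, 5.73 and 8.61 RPKM (ratio 0.479, 0.371 to 0.601).

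Chaperones and unfolded protein response genes of the endoplasmic reticulum had 23 members and a median log2 ratio of -0.12. Sdf2l1, which encodes part of a chaperone complex, was the 1 member of this list past 1.5-fold, at 11.6, 5.57 and 5.29 RPKM (ratio 0.468, 0.281 to 0.757). Hspa5, the main chaperone of this compartment, was at 114, 104 and 87.5 RPKM and the factor gene Xbp1 at 37.1, 36.9 and 40.2 RPKM. The sensor gene Eif2ak3 was at 2.08, 3.17 and 1.89 RPKM, under the filter.

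**Figure D3:**
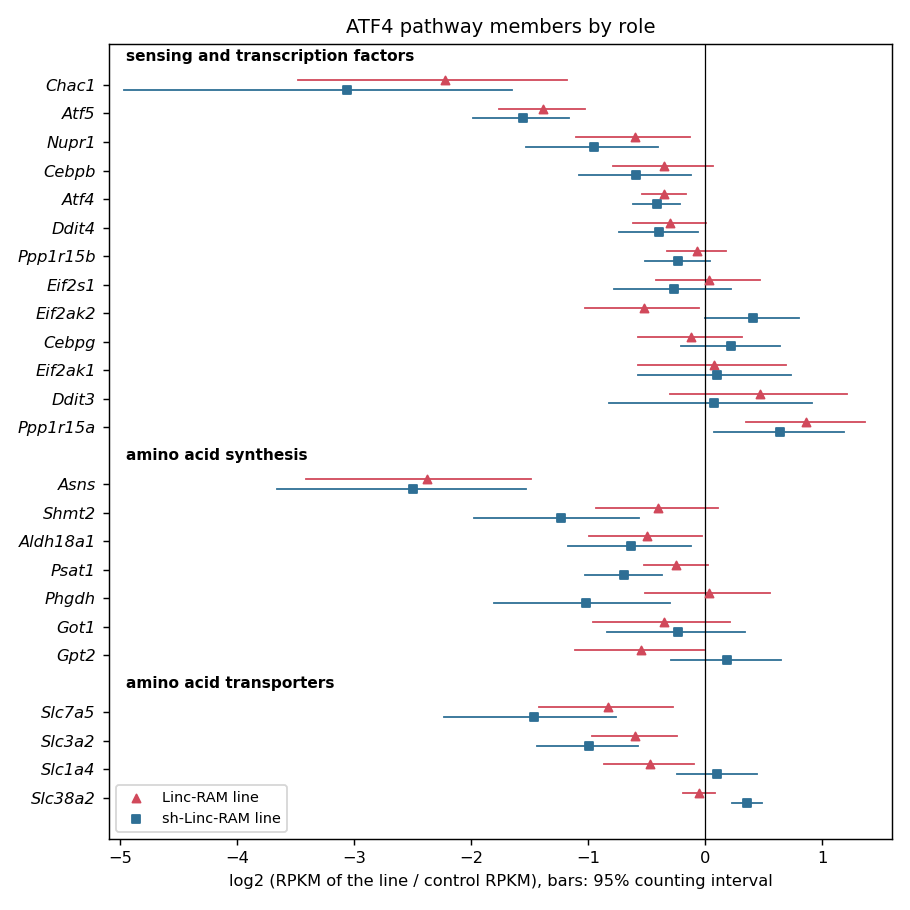
Log2 ratio of the overexpressed (triangle) and knocked-down (square) line to the control for 24 of the 25 measured ATF4 pathway members, grouped by role, with bars for the 95% counting interval of each line. The same control library stands behind both symbols of a gene, Asns, Chac1 and Atf5 lie furthest to the left, and Ppp1r15a lies furthest to the right.

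Genes of the smooth muscle actin cytoskeleton are controlled in many cells by serum response factor and its cofactors of the MRTF family, which sense the state of actin. They are active in smooth muscle, in myofibroblasts and in myoblasts. Of 35 genes listed, 29 were members, and 22 of these had a ratio below 1. The mean was at least 1.5-fold lower for 5 of the 29, against 3.04% of all members, and at least 1.5-fold higher for 1, against 4.49%, and the median log2 ratio was -0.15. The list as a whole thus lay near the control, and a few members lay far below the control.

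These members encode proteins of the smooth muscle contractile apparatus. Actg2, the gamma actin of enteric smooth muscle, was at 141 RPKM in the control, 29.6 in the overexpressed and 45.8 in the knocked-down line, a ratio of 0.267 (0.225 to 0.308). Acta2, the alpha actin of smooth muscle, was at 985, 373 and 544 RPKM (ratio 0.466, 0.442 to 0.480). Tagln, or transgelin, had 182, 60.8 and 74.2 RPKM and a ratio of 0.372 (0.331 to 0.412). In the calponin gene Cnn1 the values were 11.9, 2.63 and 4.56 RPKM, with a ratio of 0.303 (0.190 to 0.453). In these 4 genes both lines were below the control and the overexpressed line was the lower one. Myl9, a myosin regulatory light chain gene, was at 159, 64.9 and 116 RPKM and passed 1.5-fold in the overexpressed line but not in the knocked-down line. Reads of actin genes can be shared between paralogs.

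The broadly expressed genes of the same list differed less. The filamin gene Flna was at 243, 169 and 157 RPKM (ratio 0.672, 0.647 to 0.700), Tpm2 at 98.4, 72.4 and 75.4 RPKM and Actn4 at 49.2, 36.8 and 36.0 RPKM, all lower in both lines and none past 1.5-fold in the mean. Myh9, non-muscle myosin, had 156, 153 and 153 RPKM. Srf, the factor itself, was at 12.2, 10.4 and 13.7 RPKM with an interval (0.810 to 1.187) that included 1, and its cofactor gene Mkl1 was at 20.5, 15.3 and 19.3 RPKM. Fhl1 was the member at least 1.5-fold higher, and it rested on the overexpressed line alone (23.9, 62.6 and 23.1 RPKM).

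Ubb and Gm1821 lay on the other side. Ubiquitin, the small protein that marks others for the proteasome, is made in part from Ubb, whose transcript repeats the coding unit head to tail, and in part from genes such as Rps27a, where it is fused to a ribosomal protein. Ubb was at 1545 RPKM in the control, 2889 in the overexpressed line and 3328 in the knocked-down line (ratio 2.01, 1.95 to 2.06). Gm1821, a gene model with ubiquitin repeats, had 942, 1822 and 2118 RPKM (ratio 2.09, 2.00 to 2.18). In both genes each line was well above the control. Genes with these repeats are near-identical in part, so the division of reads among them is uncertain. Rps27a (21.4, 27.8 and 28.5 RPKM) stayed within 1.5-fold of the control in each line. The proteasome had 28 members and a median log2 ratio of 0.05. Heat shock proteins had 19 members with a median of 0.10, and neither list had a member past 1.5-fold in both lines.

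**Figure D4:**
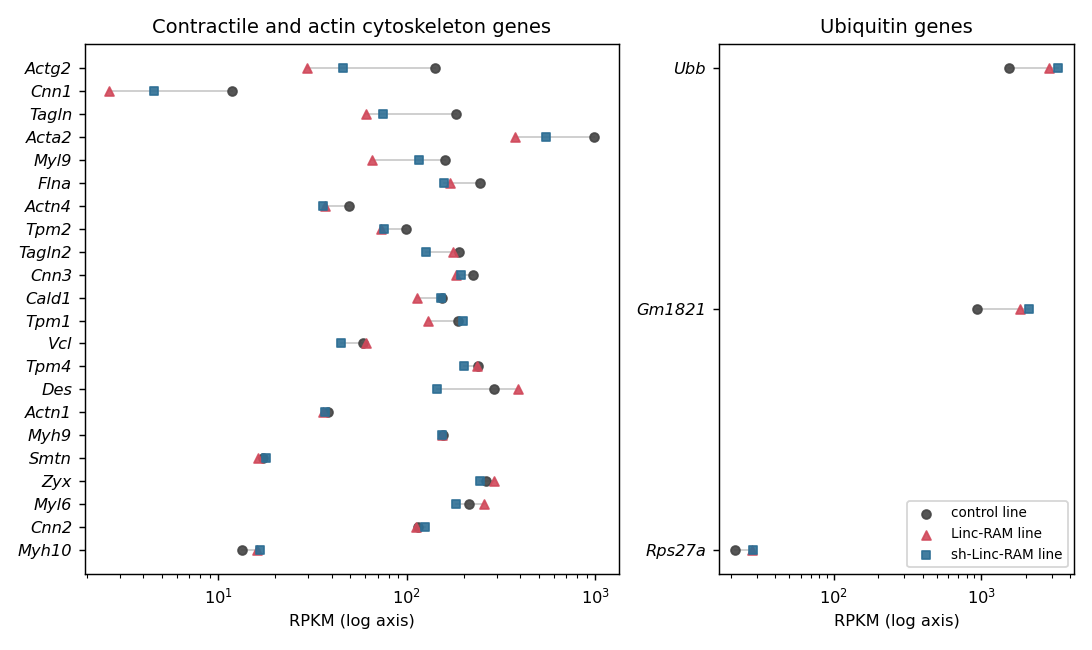
RPKM on a log axis in the control (circle), overexpressed (triangle) and knocked-down (square) libraries for the 22 measured contractile and actin cytoskeleton genes, sorted by ratio, and for Ubb, Gm1821 and Rps27a. Both lines lie left of the control for Actg2, Cnn1, Tagln and Acta2 and right of it for Ubb and Gm1821.

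Several secreted and signalling genes were lower in both lines. Of 16 measured targets and factors of YAP and TEAD, the coactivator and DNA-binding pair that responds to cell shape, F3, or tissue factor, was at 15.1, 5.06 and 7.66 RPKM and Cyr61, a matricellular protein gene, at 49.0, 30.4 and 30.7 RPKM. The mean of both lines was at least 1.5-fold lower for 3 of the 16, against 3.04% of all members, and the median log2 ratio of that list was -0.10. Inhba, which encodes the subunit of activin A, had 44.7, 19.9 and 28.9 RPKM, and the list of TGF-beta, activin and BMP genes had a median of -0.05 over 27 members. The ligand gene Wnt10a was at 40.8, 23.01 and 15.5 RPKM. Wnt pathway genes had 11 members and a median of -0.09. Their mean was at least 1.5-fold higher for 3 and lower for 1, against 4.49% and 3.04% of all members. Cytokine and chemokine genes had 12 members and a median of -0.23, with 7 below the control in each line and 2 above it in each line. The share of all members with both lines on 1 side of the control was not determined, so these counts only describe the list. Of the chemokine genes, Ccl7 was lower (18.3, 8.32 and 9.33 RPKM) and Cxcl1 higher (16.2, 25.02 and 27.5 RPKM) in both lines. Stmn2, a regulator of microtubules known from neurons, was at 81.9, 37.4 and 9.51 RPKM, and S1pr3, a receptor for sphingosine 1-phosphate, at 9.56, 4.45 and 1.42 RPKM. For Stmn2 and S1pr3 both lines were below the control and the knocked-down line was by far the lower. Most neurofilament and neurite genes went the other way from Stmn2, with 6 of 7 members above the control, 1 below it and a median of 0.44.

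Collagens and matrix genes had 44 members and a median log2 ratio of -0.09. Col18a1, which encodes a basement membrane collagen, was higher in both lines at 17.5, 30.6 and 34.8 RPKM (ratio 1.86, 1.66 to 2.08). Lox, the lysyl oxidase that crosslinks collagen, was the 1 member of the list at least 2-fold lower, at 227, 119 and 102 RPKM (ratio 0.487, 0.461 to 0.518). Serpinh1, the collagen chaperone, was at 558, 368 and 406 RPKM and passed 1.5-fold in the overexpressed line but not in the mean of both. Among IGF and imprinted growth genes, Igfbp4 was higher (10.5, 16.3 and 16.2 RPKM) and Igfbp7 lower (111, 72.8 and 72.4 RPKM), and in each the 2 lines were nearly equal. The median of that list was -0.02 over 14 members.

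Metabolic and growth lists differed by less than 1.5-fold in most members. For comparison, the median log2 ratio over all members was -0.00. Sterol and fatty acid synthesis had 33 members, 24 of them below the control, and a median log2 ratio of -0.22. The sterol reductase gene Tm7sf2 (8.17, 3.53 and 5.04 RPKM) was lower by 1.5-fold in each line and the desaturase gene Fads2 (27.9, 17.6 and 18.7 RPKM) in the mean. Cytosolic ribosomal proteins had 43 members, 32 of them above the control, and a median of 0.22. Their genes have many processed copies that can share reads. Of the ribosomal genes Rpl7a (5.87, 9.89 and 11.7 RPKM) was the 1 past 1.5-fold in each line. Cell cycle genes had 49 members, 35 of them above the control, and a median of 0.15. In mitosis genes, a part of this list, 21 of 26 lay above with a median of 0.27. The replication part went the other way, with 9 of 15 below and a median of -0.07. Its medians were 0.15 in the overexpressed and -0.46 in the knocked-down line. Tacc3, a spindle protein gene of the mitosis part, was at 14.8, 26.1 and 30.02 RPKM (ratio 1.90, 1.57 to 2.27). The cell cycle kinase gene Cdk6 had 3.55, 6.73 and 5.82 RPKM. Single genes of other lists were Hmox1, or heme oxygenase (15.2, 6.93 and 8.45 RPKM), the early response gene Egr2 (10.2, 6.09 and 3.23 RPKM) and the p53 target Sesn1 (6.60, 10.7 and 13.1 RPKM). Glycolysis and hypoxia (23 members, median -0.16) and oxidative phosphorylation (39 members, median -0.06) had no member past 1.5-fold in the mean of both lines.

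In the muscle lists, differences of 1.5-fold were rarely shared by both lines, and the same held for all members (1.58% higher and 1.49% lower). Myogenic factors had 10 members with a median log2 ratio of 0.31 in the overexpressed and 0.10 in the knocked-down line, and none passed 1.5-fold in both. The mean was above the control for 9 of them, and each line was above it for 4 and below it for 1. Genes of fusion, adhesion and the neuromuscular junction had 16 members. Each line was above the control for 8 of these and below it for 6, and 1 was at least 1.5-fold higher in each line. Counts by side only describe these lists, because the same share over all members was not determined. The sarcomere list had only 4 members, with medians of 1.10 and -0.12. Canonical histone genes had 11 members, all with a ratio below 1, but medians of 0.41 in the overexpressed and -0.94 in the knocked-down line, so that ratio came from the knocked-down line for most of them. The RNAs of these genes are normally not polyadenylated.

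The ratios also moved with position and base composition. The 304 members on chromosome 10, which carries the Linc-RAM gene, had a median log2 ratio of 0.36 in the overexpressed and 0.10 in the knocked-down line, and 84.9% of them were above the control in the overexpressed line. In the 7 windows of 20 Mb along that chromosome the median of the overexpressed line lay between 0.33 and 0.41. Chromosome 4 (352 members, medians 0.15 and 0.13) and chromosome 5 (377 members, 0.16 and 0.07) were above the control in both lines, and chromosome 7 (372 members, -0.07 and -0.22) and chromosome 19 (226 members, -0.09 and -0.28) below it. Tacc3 lies on chromosome 5. None of the 36 lower genes, 0.61% of all members, lay on that chromosome, nor on chromosomes 4, 12, 15 and X. These chromosomes held between 171 (X) and 377 (chromosome 5) members, so at that share few would fall on any of them. The 74 higher genes were 1.25% of all members. Chromosome 10 held 9 of them (2.96% of its members), chromosome 16 held 6 (3.43%), and chromosomes 9 and 18 held none. When each ratio was divided by the median of its chromosome, 60 of the 74 higher genes were still called, as were 31 of the 36 that were lower. The median log2 ratio of the knocked-down line went from 0.17 in the 20% of members with the lowest GC content of their transcripts to -0.21 in the 20% with the highest, and that of the overexpressed line from 0.07 to -0.04. The 1162 members with a transcript of 4679 nt or more held none of the 36 lower genes, against 0.61% of all members. The part of position, base composition and depth in the single genes was not tested.

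**Figure D5:**
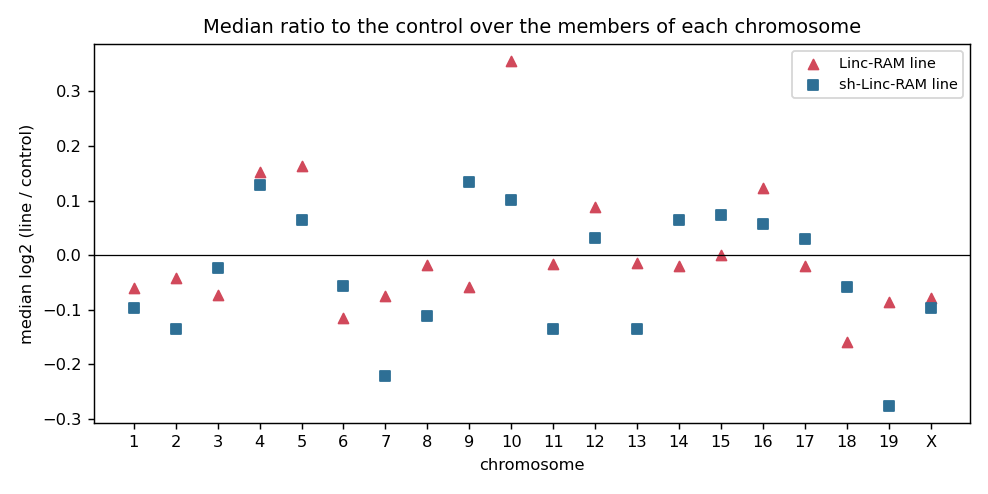
Median log2 ratio of the overexpressed (triangle) and knocked-down (square) line to the control over the members of each chromosome. Chromosome 10 of the overexpressed line stands highest at 0.36, chromosomes 4, 5, 10, 12, 15 and 16 lie above 0 in both lines, and chromosome 19 of the knocked-down line is lowest at -0.28.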

How the data were processed

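Reads had been aligned to mm9 with TopHat (the submitters' processing notes give version 1.4.1), and the authors used DEGSeq to obtain the deposited RPKM of each gene in each library. Their annotation and gene lengths, and how reads with several matches were handled, are not given in the sources consulted. RPKM depends on the library total, so abundant genes lower all others.

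The 3 files were joined on the gene symbol, and a gene was kept from a mean RPKM of 5. Ratios used the deposited RPKM with no pseudocount. No test was possible with 1 library per group, and 2-fold (mean of both lines) and 1.5-fold (each line) are rules of size. Library totals were taken as those at which RPKM values gave whole reads at GENCODE transcript lengths, a search tested on simulated data. Reads of a gene were taken at an annotated length that gave whole reads in all 3 libraries (1419 members). Otherwise they were taken at the smallest such length from 200 nt, within 1e-05 per read. They are thus lower estimates, and the intervals are if anything too wide for counting error alone. Duplicate reads and differences between libraries or lines are not in them, so they are too narrow for the difference between lines. The interval shown with a ratio of the mean is that of the pooled reads.

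The members, 31 gene lists and the rules were chosen with earlier results of these data known, and the ubiquitin list was added after its values were seen. Named genes were the 12 highest and 12 lowest by shared change among members above 0 in all libraries, up to 4 members per direction in the lists described, all ATF4 pathway members, and 2310015B20Rik, Myod1, Myog, Des and Gapdh. Pck2 and S1pr3 are among the called genes and were picked after their values were seen, as were members given for contrast. Gapdh was at 35.3, 60.9 and 36.3 RPKM in the control, overexpressed and knocked-down lines. At the filter, Adck5 (mean 4.99967 RPKM) was the nearest gene left out and Tgoln1 (mean 5.00429 RPKM) the nearest kept. Transcript GC content and positions on mm9 came from GENCODE, with a GC value for 98.5% of members. Promoters came from RefSeq (GRCm38.p6). Alternatives were other filters, scalings, averages, an added constant and leaving out a line. Computations ran in Python 3.11.15 with pandas 2.3.3 and numpy 2.4.6, intervals in scipy 1.17.1 and plots in matplotlib 3.10.9. Results of 3 genes are not reported here.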

Additional observations from a re-analysis of the deposited data

How the results depend on the processing

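The counts are given in the order 2-fold higher and lower in the mean of both lines, 1.5-fold higher and lower in each line, and ATF4 pathway members 1.5-fold lower in the mean. They were 74, 36, 93, 88 and 8. With a mean RPKM of at least 1 they were 284, 170, 336, 270 and 13, with at least 20 they were 17, 9, 16, 23 and 2, and with all genes above 0 in the 3 libraries 585, 273, 611, 392 and 14. Adding 1 RPKM to every value gave 49 genes 2-fold higher and 60 genes 1.5-fold higher in each line. Without the overexpressed library 108 genes were 2-fold lower, 28 of them shared with the 36, and without the knocked-down library 72, 29 of them shared. Of the 74 genes 2-fold higher, 40 were still called without the overexpressed library and 53 without the knocked-down library. The other counts, including those under the geometric mean, pooled reads, the same RPKM sum, division by the median ratio, and removal of RNAs without a poly(A) tail, were within 1.5 times of the first. So were those of 3 alternatives added after the data were seen (another filter on the average of control and lines, and division by the median of members of like GC content or of the same chromosome). A similar count can hold other genes. Of the 93 and 88 members changed in each line, division by chromosome kept 65 and 62, and division by GC content 75 and 64. Leaving out the overexpressed library put the ratio of Myog below 1, at 0.911. Of the 82 named genes, 23 besides Myog without the overexpressed library and 19 without the knocked-down library had a ratio outside the pooled interval, and between 0 and 5 did so under any other setting. The causes of these differences were not tested. For 9 of the ATF4 pathway members the same RPKM sum passed 1.5-fold. No paired analysis was possible because each line is 1 library. The depth of the lines limits genes such as Chac1, with 4 reads in the knocked-down line, and no setting can stand in for a second control library.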

Other observations

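Below the filter, at a mean of 1 to 5 RPKM, the 4275 genes held further genes on both sides of the control, and lowering the filter to 1 RPKM raised the 2-fold higher genes from 74 to 284 and the lower ones from 36 to 170. Aldh1l2, a mitochondrial folate enzyme on the ATF4 pathway list, was at 7.66 RPKM in the control, 1.65 in the overexpressed line and 2.03 in the knocked-down line, from 237, 21 and 23 reads (ratio 0.241, interval 0.169 to 0.331). Trib3, a pseudokinase gene of the same list, was at 2.95, 0.926 and 0.260 RPKM and Mthfd2, another mitochondrial folate enzyme gene, at 6.40, 3.21 and 1.54 RPKM. Gdf15, a secreted stress cytokine of that list, went the other way at 1.80, 8.32 and 2.46 RPKM. Atf3 was at 0.395 and 2.16 RPKM in the control and overexpressed lines and was listed at 0 in the knocked-down line.

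Tmem176a, the neighbouring family member of Tmem176b on chromosome 6, was at 7.14, 1.70 and 1.43 RPKM, from 41, 4 and 3 reads. The cyclin gene Ccnd2 was at 6.62, 1.399 and 0.185 RPKM, from 196, 17 and 2 reads. Pet2, on the X chromosome, had 5.13, 0.114 and 0.382 RPKM, from 110, 1 and 3 reads. On the higher side, the progenitor factor gene Pax7 was at 0.228, 2.78 and 5.36 RPKM, from 5, 25 and 43 reads, the keratin gene Krt19 at 0.284, 6.23 and 2.33 RPKM, from 2, 18 and 6 reads, and the netrin gene Ntn4 at 0.162, 2.56 and 1.33 RPKM, from 2, 13 and 6 reads. These genes were picked after their values were seen.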
